A study of Mus musculus with 7 samples.

Results

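The exocyst is the protein complex that tethers secretory and recycling vesicles to the plasma membrane before SNARE proteins fuse them. Its mRNAs were examined in light zone germinal centre B cells of mice labelled as knockouts of the transcription factor MIZ1 and of controls. The 9 genes are the mouse subunit genes Exoc1, Exoc2, Exoc3, Exoc4, Exoc5, Exoc6, Exoc6b, Exoc7 and Exoc8, taken by symbol from GENCODE vM21, out of 48795 gene identifiers in the count table. All 9 passed the filter on low counts, as did 11618 genes in all. The family was put together around Exoc2 because Exoc2 differed between these same libraries, that is, it was chosen by its counts in MIZ1KO and Control, so the MIZ1KO to Control differences of the subunits are given as a description and not as tests of the complex.

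Light zone germinal centre B cells were sorted from spleens of mice given sheep red blood cells intravenously and collected 10 days later, and bulk RNA was sequenced. One group carries the genotype label MIZ1KO (3 libraries, titled MizFF) and the other the label Control (4 libraries, titled eYFP). Both groups received the same immunisation. The sources used here give no Cre driver, strain, sex or age of the mice, nor do they say that each library came from its own animal, so the spread between libraries may be partly technical. MIZ1, encoded by Zbtb17, is a zinc finger factor that activates its own targets and represses others together with MYC.

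In the exocyst a rod-shaped assembly of EXOC1 to EXOC4 packs against a second one of EXOC5 to EXOC8. EXOC1 and EXOC7 bind phosphoinositides of the plasma membrane, EXOC6 and its paralogue EXOC6B bind vesicle RAB GTPases such as RAB11, and EXOC2 and EXOC8 bind the active RAL GTPases. In B cells the complex gathers at the synapse with antigen-bearing surfaces, where it takes part in the lysosome secretion that extracts antigen. EXOC2 has a further role in innate signalling, where RALB and EXOC2 recruit the kinase TBK1.

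Since Exoc2 is the subunit that stood apart, the 250 bases upstream of its outer RefSeq transcription start are shown, with those upstream of the innermost listed start of Exoc1 for contrast, the one subunit whose window held an E-box. Both were taken from RefSeq on GRCm38.p6. Exoc2 lies on the minus strand (chr13:30974048-30974297) and Exoc1 on the plus strand (chr5:76529108-76529357). Capitals mark the ETS core CGGAAGT, read on either strand, and in Exoc1 also the E-box CACGTG, the site of MYC and MAX.
Exoc2: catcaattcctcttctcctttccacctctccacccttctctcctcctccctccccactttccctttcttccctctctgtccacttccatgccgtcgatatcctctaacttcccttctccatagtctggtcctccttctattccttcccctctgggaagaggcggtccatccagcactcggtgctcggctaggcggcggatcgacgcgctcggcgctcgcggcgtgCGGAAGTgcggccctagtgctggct
Exoc1: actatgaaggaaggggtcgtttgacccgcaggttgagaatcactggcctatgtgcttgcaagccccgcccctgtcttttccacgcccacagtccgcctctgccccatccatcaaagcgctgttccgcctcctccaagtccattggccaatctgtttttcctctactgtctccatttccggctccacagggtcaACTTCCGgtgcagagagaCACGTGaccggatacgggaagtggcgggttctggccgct

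The ETS core begins 25 bases before the start in Exoc2 and 57 bases before it in Exoc1, and the E-box of Exoc1 begins 39 bases before it. Over windows of 250 bases before to 50 after each start, all 9 subunits had an entry, in 13 windows. The palindrome ATCGAT, a motif described for MIZ1, was in 0 of them and in 0.925% of all 32851 promoter windows. CACGTG was in windows of 1 subunit and in 7.15% of all windows, and CGGAAGT was in windows of 6 subunits (Exoc1, Exoc2, Exoc3, Exoc4, Exoc7 and Exoc8) and in 6.42% of all windows. A subunit was counted if any of its windows matched, while the shares are per window, so these counts and shares are unlike measures. The matches are of letters on both strands and say nothing of binding in these cells.

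The libraries held 7030988 to 9482453 estimated counts in MIZ1KO and 6896673 to 9150424 in Control. Ribosomal RNA models took 46.4% to 56.1% of them in MIZ1KO and 48.9% to 52.7% in Control, although polyA RNA is the labelled molecule. The germinal centre B cell genes Bcl6, S1pr2 and Mef2b were present in every library, with 12 of 12 markers of that list passing the filter. Of these, edgeR called Cd79a higher (0.86 ± 0.22 on the log2 scale, adjusted p = 0.0333) and Rgs13 lower (-1.32 ± 0.32, adjusted p = 0.023). The 5 light zone markers summed to 580 to 694 CPM in MIZ1KO and 516 to 739 CPM in Control, and none was called. Among them Cd86 stood at 102 to 148 CPM in MIZ1KO and at 164 to 196 CPM in Control. Nfkbia lay the other way, at 17 to 19 CPM in MIZ1KO and at 9.8 to 12.5 CPM in Control. The 8 T cell markers summed to 42.3 to 49.2 CPM in MIZ1KO and 26 to 32.9 CPM in Control, most of it Lck, which B cells can express, and Cd3e stood at 0.645 to 8.37 CPM in MIZ1KO and at 0 to 0.401 CPM in Control. Myeloid markers summed to 4.19, 21.6 and 21.4 CPM in MIZ1KO and to 4.85 to 9.62 CPM in Control. Plasma cell markers summed to 109 to 181 CPM in MIZ1KO and 153 to 336 CPM in Control, and erythroid markers to 61 to 489 CPM in MIZ1KO and 115 to 425 CPM in Control. Their part in the results was not tested. Zbtb17 measured 3.7 to 5.16 CPM in MIZ1KO and 3.15 to 7.02 CPM in Control. Its count covers the whole gene, so it does not check the genotype. Provisional transcript models of the GENCODE class TEC took, leaving ribosomal RNA aside, 0.69% ± 0.204 of MIZ1KO counts (SD, n = 3) and 1.79% ± 0.653 of Control counts (SD, n = 4), with no overlap of the groups. In bulk RNA, fewer cells that express a gene and less RNA per cell cannot be told apart.

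Exoc2 (ENSMUSG00000021357, minus strand of chromosome 13 from 30813919 to 30974093 in GRCm38) encodes a subunit that carries a RAL-binding domain. It measured 14.4, 14.1 and 9.97 CPM in MIZ1KO replicates 1 to 3, against 36.7, 28.6, 38.5 and 39.5 CPM in Control replicates 1 to 4. CPM relates counts to a library size of 1e6 after scaling by TMM, a trimmed mean of log ratios. Every MIZ1KO value lay far under the lowest Control value, that of Control replicate 2. The counts behind these values were 62 to 141 in MIZ1KO and 184 to 394 in Control. MIZ1KO averaged 12.8 ± 2.47 CPM (SD, n = 3) and Control 35.8 ± 4.94 CPM (SD, n = 4). The log2 fold change was -1.47 ± 0.26 (SE), or 2.77-fold lower in MIZ1KO. In the deposited log2 values Exoc2 stood at 7.15, 7.11 and 6.88 in MIZ1KO and at 7.91, 7.69, 7.98 and 8.01 in Control, a difference of -0.85 on a scale that draws low counts together.

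**Figure D1:**
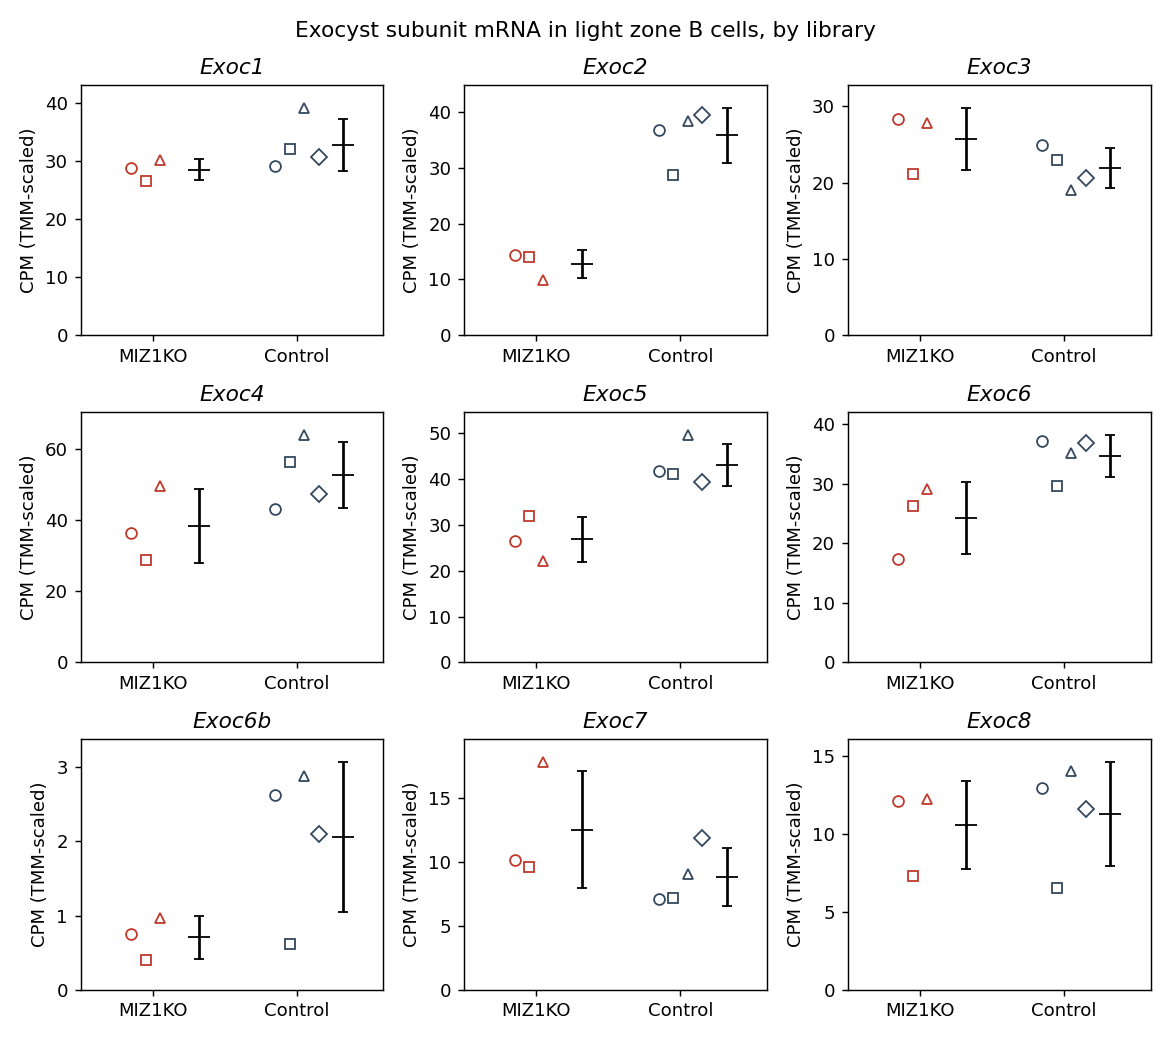
CPM (vertical axes, TMM-scaled, from 0) of the 9 exocyst subunits in MIZ1KO (left) and Control (right) libraries. Each symbol is a library, its shape the replicate number, and the bars are mean ± SD. Exoc2 shows the widest gap between the groups, 9.97 to 14.4 CPM in MIZ1KO against 28.6 to 39.5 CPM in Control, while Exoc1, Exoc3, Exoc4, Exoc6b, Exoc7 and Exoc8 overlap.

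Of the 9 subunits, Exoc2 alone passed an adjusted p of 0.05 in edgeR's quasi-likelihood test over all genes, in the lower direction, where 4.05% of tested genes passed lower and 1.90% higher. Among tested protein-coding genes, the class of all subunits, 2.06% passed lower and 2.08% higher. It ranked 31 by p among the 11618. The call ended without MIZ1KO replicate 1 and with the TEC share as a covariate, where the log2 fold change was as large, at -1.50 and -1.52 (adjusted p = 0.0508 and 0.0652, edgeR). Exoc2, Exoc5 and Exoc6 were lower with no overlap between the groups, and 0 subunits were higher in this way. Over all tested genes 10.8% were lower and 8.74% higher without overlap. Among the 9812 tested protein-coding genes 778 were lower and 970 higher in this way. The median log2 fold change of the subunits was -0.47, with 7 of 9 below 0, beside -0.03 over all tested genes (52.3% below 0) and 0.03 over tested protein-coding genes (47.5% below 0). Because Exoc2 chose the family, and Exoc6b passed the filter only through Control libraries, these counts are not read as evidence on the complex.

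Within the assembly of EXOC1 to EXOC4 the partners of Exoc2 lay close to Control or moderately lower. Exoc1 (SEC3 in yeast), which binds the plasma membrane, measured 28.8, 26.7 and 30.2 CPM in MIZ1KO and 29.1, 32, 39.2 and 30.8 CPM in Control. Its log2 fold change was -0.20 ± 0.23 (SE), less than its error. The groups overlapped.

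Exoc3 (SEC6 in yeast), a core subunit that touches the SNARE machinery in yeast, measured 28.4, 21.1 and 27.8 CPM in MIZ1KO and 24.9, 23, 19 and 20.7 CPM in Control. The log2 fold change was 0.23 ± 0.25. Exoc3 lies on the chromosome of Exoc2, from 74169488 to 74208732, and its values leaned the other way. Exoc4 (SEC8 in yeast), another core subunit, had 290 to 340 counts in MIZ1KO and 330 to 488 in Control. Its levels were 36.5, 29 and 49.7 CPM in MIZ1KO and 43.3, 56.5, 64 and 47.3 CPM in Control, a log2 fold change of -0.47 ± 0.24. MIZ1KO replicate 3 lay above Control replicates 1 and 4, so the groups overlapped. Without MIZ1KO replicate 2 the log2 fold change of Exoc4 was -0.24.

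In the assembly of EXOC5 to EXOC8 the subunits split in direction. Exoc5 (SEC10 in yeast), a core subunit, measured 26.5, 31.9 and 22 CPM in MIZ1KO and 41.8, 41.1, 49.6 and 39.3 CPM in Control. None of the MIZ1KO libraries reached the Control range, with a log2 fold change of -0.67 ± 0.23 that did not pass over all genes. The model of Exoc5 shares 528 exonic bases with that of Ap5m1 on the other strand, and the sources used here do not give the strand setting of the counting. Ap5m1 had 49 to 93 counts in MIZ1KO and 31 to 81 in Control.

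Exoc6 (SEC15 in yeast), the subunit that binds RAB11 on vesicles, measured 17.4, 26.2 and 29.1 CPM in MIZ1KO and 37.1, 29.6, 35.2 and 36.8 CPM in Control. The groups did not overlap but nearly touched, at 29.1 CPM in the highest MIZ1KO library against 29.6 CPM in the lowest Control library. Its log2 fold change was -0.53 ± 0.24, and -0.28 without MIZ1KO replicate 1. The paralogue Exoc6b was close to the detection floor. It rested on 7, 4 and 6 counts in MIZ1KO and on 20, 4, 22 and 21 counts in Control, and Control replicate 2 lay among the MIZ1KO libraries. Its log2 fold change of -1.63 ± 0.72 was the most negative of the family and the least certain. Exoc6b passed the filter only through Control libraries, which favours a lower value in MIZ1KO. Per 100 Exoc6 counts MIZ1KO libraries had 3.05 ± 1.42 Exoc6b counts (SD, n = 3) and Control libraries 5.78 ± 2.65 (SD, n = 4), so Exoc6 was the main SEC15 transcript in both groups.

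Exoc7 (EXO70 in yeast), which binds the membrane and recruits the complex to it, measured 10.2, 9.59 and 17.9 CPM in MIZ1KO and 7.08, 7.16, 9.06 and 11.9 CPM in Control. MIZ1KO replicate 3 lay above the rest and Control replicate 4 inside the MIZ1KO range. The log2 fold change was 0.45 ± 0.35. It was 0.15 without MIZ1KO replicate 3 and 1.33 with the TEC share as a covariate. Exoc8 (EXO84 in yeast), the other RAL-binding subunit, measured 12.1, 7.29 and 12.2 CPM in MIZ1KO and 13, 6.53, 14 and 11.6 CPM in Control. Here the groups had nearly the same range, with a log2 fold change of -0.13 ± 0.35, unlike the RAL-binding subunit Exoc2 at -1.47 ± 0.26, although the difference between these subunits was not tested.

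A ratio within a library does not depend on how libraries are scaled to each other. Exoc2 had 8.96, 9.26 and 5.25 counts per 100 counts of the other 8 subunits in MIZ1KO, and 18.5, 14.6, 16.5 and 19.7 in Control. The means were 7.82 ± 2.23 (SD, n = 3) and 17.3 ± 2.25 (SD, n = 4), without overlap. Because Exoc2 was chosen by these counts, the gap in the ratio is a description. The other 8 subunits together measured 161, 152 and 190 CPM in MIZ1KO and 199, 196, 233 and 200 CPM in Control, also without overlap. MIZ1KO replicate 3 had both the highest sum of the other subunits and the lowest Exoc2 among MIZ1KO libraries.

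**Figure D2:**
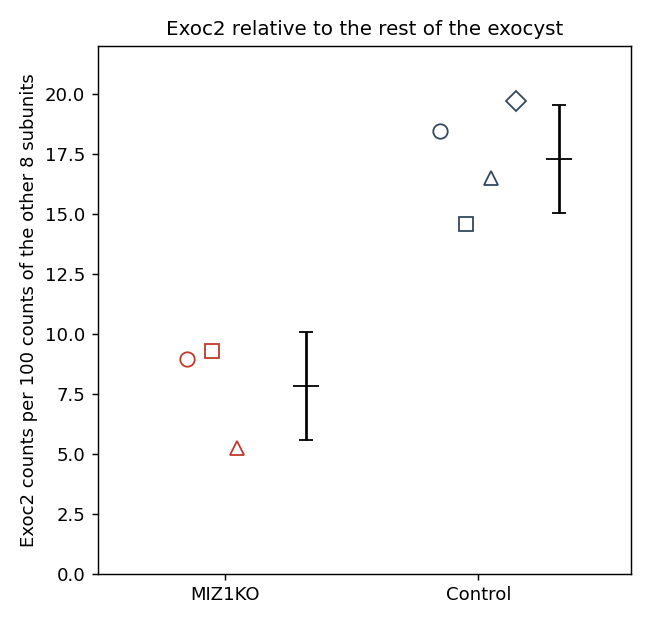
Exoc2 counts per 100 counts of the other 8 exocyst subunits (vertical axis, from 0) in each MIZ1KO (left) and Control (right) library. Symbols are libraries, their shape the replicate number, and the bars are mean ± SD. The MIZ1KO libraries lie between 5.25 and 9.26 and the Control libraries between 14.6 and 19.7.

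Levels of different subunits were compared per length, as TPM, transcripts in 1e6, over genes outside ribosomal RNA with the union of exons as length. In MIZ1KO the order was Exoc6 at 38.2 ± 9.39 TPM, Exoc3 at 24.2 ± 4.96, Exoc4 at 17.2 ± 5.28, Exoc7 at 16.2 ± 6.4, Exoc1 at 13.3 ± 1.47, Exoc8 at 13 ± 4.02, Exoc2 at 10.3 ± 1.91, Exoc5 at 8.31 ± 1.16 and Exoc6b at 0.265 ± 0.116 TPM (SD, n = 3). In Control it was Exoc6 at 57.9 ± 12.5 TPM, Exoc2 at 30.7 ± 8.35, Exoc4 at 25.1 ± 8.24, Exoc3 at 21.2 ± 1.27, Exoc1 at 16.3 ± 5.02, Exoc8 at 14.8 ± 5.88, Exoc5 at 14.2 ± 3.82, Exoc7 at 12.2 ± 4.64 and Exoc6b at 0.824 ± 0.468 TPM (SD, n = 4). The most and the least abundant subunit held their place in all 7 libraries, whereas most neighbours between them lay within their spread.

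Exoc2 changed its place in this order, which is a description because Exoc2 was chosen by these counts. It ranked 7, 6 and 7 of 9 in MIZ1KO replicates 1 to 3 and 2, 3, 2 and 2 in Control replicates 1 to 4. Its share of the summed subunit TPM was 7.3% in MIZ1KO and 15.9% in Control, taken on group means. With the length of the longest transcript in place of all exons it ranked 5, 5 and 7 in MIZ1KO and 3, 4, 4 and 3 in Control. That choice of length also put Exoc4 or Exoc6 first, so the top of the order depends on the gene model.

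The genes of the subunits differ widely in span, which runs from 4.6 kb for Exoc8 to 725 kb for Exoc4, with Exoc2 at 160 kb and Exoc6b at 451 kb. The most negative were Exoc6b (-1.63) and Exoc2 (-1.47), both above 150 kb. Exoc4, the longest, was less negative (-0.47) than Exoc5 (62.6 kb, -0.67) and Exoc6 (134 kb, -0.53). Across the 9 subunits the Spearman correlation between span and log2 fold change was -0.77, given as a description over 9 genes measured in the same 7 libraries, among them Exoc2, chosen by its value, and Exoc6b with few counts. Tested protein-coding genes showed a weaker tilt of the same sign, with a Spearman correlation of -0.19 across 9812 genes, which are not independent replicates. With 1 library left out it ran from -0.12, where MIZ1KO replicate 2 was absent, to -0.27, where Control replicate 1 was. The median log2 fold change of these genes was 0.21 for spans up to 10 kb, 0.03 from 10 to 50 kb, -0.06 from 50 to 150 kb and -0.20 above 150 kb.

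Exoc2, chosen by its difference between MIZ1KO and Control, lay below the first quartile of its span class, at -1.47 against -0.56. That place is a description, because the choice favours it. Of the 549 genes above 150 kb in this class, 11 (2.0%) were called lower and 0 higher by edgeR. In the same class Exoc6b, with few counts, lay lower at -1.63, and Exoc4, at -0.47, lay inside the middle part. The TEC share of the libraries moved with the groups, at 0.69% in MIZ1KO and 1.79% in Control. With that share as a covariate the Spearman correlation across protein-coding genes became 0.14, Exoc4 measured 0.15 and Exoc2 -1.52 on the log2 scale. As the share did not overlap between the groups, it and the genotype cannot be told apart.

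**Figure D3:**
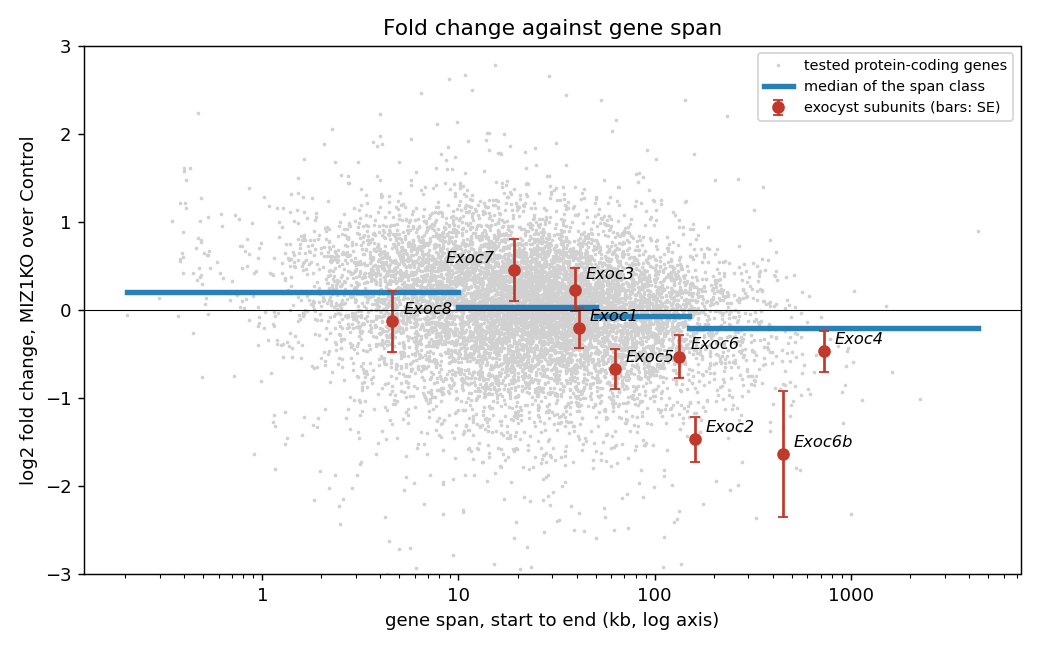
Log2 fold change of MIZ1KO over Control (vertical axis) against gene span in kb (horizontal log axis) for 9812 tested protein-coding genes in grey and the 9 exocyst subunits in red with SE bars. Blue lines are the medians of the span classes, from 0.21 up to 10 kb to -0.20 above 150 kb, and 23 genes beyond 3 in either direction are outside the plot.

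Neither tested neighbour of Exoc2 passed the test. The nearest tested protein-coding gene on one side is Irf4, 46.9 kb away, a transcription factor of germinal centre and plasma cell fate. Irf4 measured 55.3, 74.2 and 68.4 CPM in MIZ1KO and 41.3, 56.6, 52.2 and 35.6 CPM in Control, or 0.51 ± 0.22 on the log2 scale (adjusted p = 0.158, edgeR), with overlapping groups. On the other side lies Gmds, an enzyme of GDP-fucose synthesis, 845 kb away, at -0.26 ± 0.37 with an adjusted p of 0.713 (edgeR). Hus1b, whose model sits inside the span of Exoc2 on the same strand, shares 0 exonic bases with it and had no counts in any MIZ1KO library and 6, 2, 21 and 4 counts in Control, below the filter. Of the other subunits, Exoc4 and Exoc6b enclose pseudogene, TEC and small non-coding models with at most 34 counts in a library and no shared exonic base. Exoc7 shares 293 exonic bases with the lincRNA model Gm26730 on the other strand, which had 0 counts in every library. Exoc5 also overlaps the TEC model Gm49204, which shares 0 exonic bases with it and is absent from the count table.

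Among the subunits Exoc5 followed Exoc2 most closely across the 7 libraries, with a Pearson r of log2 CPM of 0.93, and Exoc3 and Exoc7 ran against it, at -0.63 and -0.60. These values describe 7 libraries in which the groups already differ, and the values of a library share its depth and scaling. Among 6300 other protein-coding genes with a mean of at least 10 CPM, the 5 most like Exoc2 were Zdhhc21, a palmitoyltransferase, at 0.98, Zfp654 at 0.98, Sdf2, a protein of the endoplasmic reticulum, at 0.98, Taf7, a subunit of the general factor TFIID, at 0.98, and Ash2l, a subunit of histone H3 methyltransferase complexes, at 0.97. Of these, Zdhhc21 fell by 0.77 and Taf7 fell by 1.13 on the log2 scale, with adjusted p-values of 0.033 and 0.0323 (edgeR), and the other 3 did not pass. Those calls ended in 10 of 18 alternatives for Zdhhc21 and in 8 of 18 for Taf7. A likeness to Exoc2 over these libraries favours genes that are lower in MIZ1KO.

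The partners and relatives of the exocyst were taken from 9 lists of 87 entries, drawn up with earlier results of these data known, of which 77 were tested. Of them edgeR called 1, Rint1, or 1.3%, against 5.96% of all tested genes, and 9 were higher and 5 lower at an unadjusted p under 0.05, where 24.6% of all tested genes passed in either direction. DESeq2 called 1 and limma-voom 0. The median log2 fold change of the 77 was 0.08.

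In the module of the RAL GTPases, which load onto EXOC2 and EXOC8, 0 of 11 tested genes passed. The GTPases Rala and Ralb measured 0.22 ± 0.31 and -0.17 ± 0.37 on the log2 scale, and the kinase gene Tbk1 -0.24 ± 0.28. Ralgapa2, a subunit of a RAL GTPase-activating complex, measured -0.73 ± 0.32 (adjusted p = 0.169, edgeR) and had the smallest p of the module. Pip5k1c, which makes the phosphoinositide that EXOC1 and EXOC7 bind, measured 0.79 ± 0.26 (adjusted p = 0.0756, edgeR) and the GTPase Arf6 0.55 ± 0.20 (adjusted p = 0.0987, edgeR), while Rab11a, the vesicle partner of EXOC6, measured -0.20 ± 0.32. With the TEC share as a covariate Arf6 measured 0.016 and Pip5k1c 1.50. Arf6 passed without Control replicate 1 (adjusted p = 0.048, edgeR), and Pip5k1c without MIZ1KO replicate 2 (adjusted p = 0.0442, edgeR) or Control replicate 3 (adjusted p = 0.0487, edgeR).

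Of the plasma membrane SNAREs and their SM proteins, which act after tethering, 0 of 14 passed. Stxbp3, an SM protein that binds syntaxin 4, measured 8.38, 16.4 and 14.5 CPM in MIZ1KO and 16.1, 31.4, 35.4 and 22.4 CPM in Control, a log2 fold change of -1.01 ± 0.32 (adjusted p = 0.0703, edgeR). Control replicate 1 lay within the MIZ1KO range. Stxbp3 passed without Control replicate 1 (-1.18, adjusted p = 0.018, edgeR) and with replicate number as a block (-1.01, adjusted p = 0.048, edgeR), and measured -0.02 with the TEC share as a covariate. Snap23, a plasma membrane SNARE, measured -0.59 ± 0.25 (adjusted p = 0.157, edgeR).

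Among the other tethering complexes 1 gene passed. Rint1, a subunit of the Dsl1 complex that receives Golgi vesicles at the endoplasmic reticulum, measured 8.27, 7.79 and 8.04 CPM in MIZ1KO and 13.6, 11.5, 24.7 and 24.1 CPM in Control. It fell by 1.22 ± 0.34 on the log2 scale, with an adjusted p of 0.0455 (edgeR), and its groups did not overlap. The call of Rint1 ended in 12 of 18 alternatives, among them each MIZ1KO library left out, and its log2 fold change was -0.34 with the TEC share as a covariate. Its Dsl1 partner Zw10 measured 0.53 ± 0.27 (adjusted p = 0.235, edgeR), with the groups apart in the other direction.

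Of COG, which tethers within the Golgi, 0 of 7 tested subunits passed, with Cog5 at -0.53 ± 0.28 and Cog6 at 0.41 ± 0.29. Of GARP and EARP, which receive endosomal carriers, 0 of 5 passed. Vps54 and Vps52, both of GARP, pointed apart, at -0.75 ± 0.25 (adjusted p = 0.0739, edgeR) and 0.74 ± 0.26 (adjusted p = 0.0935, edgeR). Vps54 passed without Control replicate 1 (-0.79, adjusted p = 0.0476, edgeR) and measured -0.25 with the TEC share as a covariate. Of HOPS and CORVET, which tether late and early endosomes, 0 of 10 passed, with Vps18 at 0.87 ± 0.31 and Tgfbrap1 at 0.75 ± 0.29. Of TRAPP, which acts at the Golgi as a RAB exchange factor, 0 of 14 passed, with Trappc10 at 0.60 ± 0.27 and Trappc4 at 0.72 ± 0.33. The relatives of Exoc3 were not tested: Exoc3l had at most 12 counts in a library and Tnfaip2 at most 2, and Exoc3l2 and Exoc3l4 had 0.

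**Figure D4:**
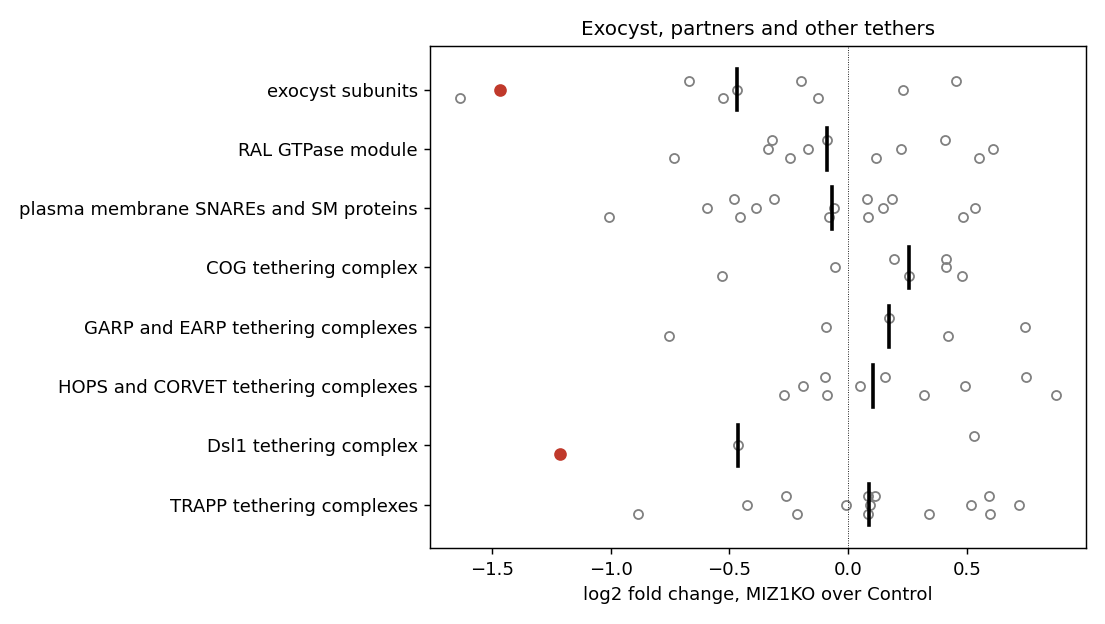
Log2 fold change of MIZ1KO over Control (horizontal axis) of the tested members of the exocyst, its partners and other tethering complexes, 1 row a list, for the lists whose counts are given above. Each circle is a gene, filled red where the adjusted p of edgeR is under 0.05, and the black bars are medians. Exoc2 at -1.47 and Rint1 at -1.22 are the filled circles, and the list medians other than those of the exocyst (-0.47) and Dsl1 (-0.46) lie between -0.09 and 0.25.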

How the data were processed

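The authors deposited a table of expected counts per gene, estimated reads without normalization, and a table of log2 values for the 7 libraries, named vsd; the sources used here do not say how these were computed. STAR 2.5.2, RSEM 1.3.0, DESeq2 1.18.1, R 3.4.3 and GRCm38 are named, without role or order, per the submitters' processing notes.

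Expected counts, 6.61% of them not whole, were rounded, filtered with filterByExpr and scaled by TMM. MIZ1KO was compared with Control with edgeR 4.0.16 in R 4.3.3 (quasi-likelihood F-test, newer fit, robust), two-sided, with Benjamini-Hochberg adjustment over 11618 genes at 0.05. Standard errors came from the fold change and F statistic. CPM used TMM-scaled library sizes, log2 CPM a prior count of 2, and TPM the exonic lengths of GENCODE vM21. Limma 3.58.1 and DESeq2 1.42.0 served alternatives. The fit was tested on simulated data. The smallest chi-square per degree of freedom between libraries of a group was 14.7, so none was taken as a repeat of another and each counted once. This value cannot show whether the libraries came from separate animals.

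Subunits and lists were chosen with earlier results of these data known. Named genes were all subunits, called genes or the 2 smallest p-values per related list, the nearest tested neighbours of Exoc2 and the 5 genes most like it. Tnfaip2 and the other untested relatives, Rala, Ralb, Tbk1, Rab11a, Cd86 and Nfkbia were named after their values were seen. One further gene of this rule and the count of one list are not reported here.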

Additional observations from a re-analysis of the deposited data

Results flagged for a closer look

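Of 32 genes examined in the 4 Control libraries, 1 had a library far from the others. Cog6, a subunit of the COG tether, measured 13.7 CPM in Control replicate 4 and 10.3 to 10.8 CPM in the other Control libraries, a gap that is 0.857 of the range of the group. Chance marks about 5% of groups in this way. None of the 9 exocyst subunits was marked.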

How the results depend on the processing

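Exoc2 was lower in MIZ1KO in all 18 alternatives. These reuse the libraries by which Exoc2 was chosen, so the constant direction is a description. Leaving out 1 library at a time gave log2 fold changes from -1.56 to -1.33, and the call of Exoc2 ended without MIZ1KO replicate 1 and with the TEC share as a covariate (-1.52). On the deposited log2 values the difference was -0.85. The number of genes called, 692, became 1085 in DESeq2, 342 in limma-voom, 315 among protein-coding genes only and 296 with the TEC share, and ran from 39 without MIZ1KO replicate 1 to 1350 without Control replicate 1. In the related lists 0 genes instead of 1 were called by the legacy edgeR fit, limma-voom, without the filter, on the deposited log2 values and with the TEC share, and 0 to 4 with a library left out. With the TEC share, signs turned for Exoc1 (0.15), Exoc3 (-0.0093), Exoc4 (0.15), Exoc8 (0.059), Cog5 (0.28) and Gmds (0.21), none of which was called. Exoc8 also turned without MIZ1KO replicate 2 (0.163) and without Control replicate 3 (0.024), within a range of -0.303 to 0.163 over libraries left out. The cause was not tested. The split of 221 higher and 471 lower genes was 184 and 475 with library totals, 297 and 423 without ribosomal RNA models, 140 and 175 in the fit of protein-coding genes and 47 and 249 with the TEC share. It turned to 299 and 196 without MIZ1KO replicate 2 and to 22 and 17 without MIZ1KO replicate 1. Among protein-coding genes of the fit over all genes it was 204 and 202. No other subunit passed in any alternative. Deviations from the group mean correlated weakly between libraries with the same replicate number (r from 0.02 to 0.16). These few values cannot settle whether the numbers pair the libraries, and the main fit did not pair them. With the replicate block, on 6 libraries, 555 genes were called and Exoc2 measured -1.37. Exoc2's share of subunit TPM in Control was 15.8% by library, and 16.5% with the longest transcript. The low counts of Exoc6b, 4 to 22 a library, which fell below the filter under the block and without Control replicates 1, 3 or 4, limit what can be said of it.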
